A study of Mus musculus with 8 samples.

Results

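The growth arrest genes Cdkn1a, Gadd45a, Gadd45b, Gadd45g, Btg1, Btg2, Ccng1 and Mdm2 were read through every probe set that names 1 of them alone in the array annotation. There were 10 such probe sets for the 8 genes among 12422 tested, 10833 of which name 1 gene, with 2 each for Cdkn1a and Gadd45b. No probe set named a member together with another gene. The samples were 8 oligonucleotide arrays of total RNA from mouse liver, 2 in each of 4 groups. All mice carried Ttr::Fv2E-Perk, here the low expressing line #58, in which the transthyretin promoter, active in hepatocytes, drives a form of the stress kinase PERK that is silent until its Fv2E domain is brought together by the drug AP20187. The groups were untreated Atf4+/+, untreated Atf4-/-, AP20187-treated Atf4+/+ and AP20187-treated Atf4-/- siblings on a mixed FvB/n and Swiss Webster background, and the series title calls the mice without AP20187 mock-injected. Age, sex, dose and time after injection are not given in the sources used here, nor whether each array stands for its own mouse, so that p-values measure the spread between these arrays, which may be technical.

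Cells that stop dividing under stress do so in part through induced inhibitors of the cell cycle. Cdkn1a encodes p21, which inhibits the cyclin-dependent kinases that drive entry into S phase. The Gadd45 proteins are small acidic proteins that bind p21, PCNA and the stress kinase kinase MEKK4, and Gadd45a was named for its induction by growth arrest and DNA damage. Btg1 and Btg2 belong to a family of antiproliferative proteins that recruit the CCR4-NOT deadenylase to mRNA. Ccng1 (cyclin G1) and Mdm2, the ubiquitin ligase that removes p53, are classical p53 targets, as are Cdkn1a, Gadd45a and Btg2. The integrated stress response that PERK starts slows translation through eIF2 and raises the transcription factor ATF4.

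The promoters of the 4 genes with the largest rises in treated over untreated livers are shown here, a choice made from these same arrays. RefSeq gave 9 windows for the 8 genes (build GRCm38.p6), each from 250 bases before to 50 bases after an annotated start, and 2 of them belong to Cdkn1a. Cdkn1a start 1 lies at chr17:29090729-29091028 and start 2 at chr17:29093519-29093818, both on the plus strand. Gadd45a lies at chr6:67037358-67037657 on the minus strand, Gadd45g at chr13:51846425-51846724 on the plus strand and Btg2 at chr1:134079106-134079405 on the minus strand. Each sequence is written 5′ to 3′, and capitals mark matches, on either strand, to the p53 consensus decamer, the core of the ATF4 composite element (TGATGNAA), the full cAMP response element (TGACGTCA), the CCAAT box, the TATA box (TATAAA) and the E-box (CACGTG).
Cdkn1a start 1: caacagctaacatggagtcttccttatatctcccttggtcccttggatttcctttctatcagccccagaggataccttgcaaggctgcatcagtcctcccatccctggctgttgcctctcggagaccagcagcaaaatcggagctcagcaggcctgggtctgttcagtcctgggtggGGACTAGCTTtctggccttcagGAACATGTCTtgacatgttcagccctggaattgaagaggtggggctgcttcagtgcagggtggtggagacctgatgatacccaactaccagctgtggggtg
Cdkn1a start 2: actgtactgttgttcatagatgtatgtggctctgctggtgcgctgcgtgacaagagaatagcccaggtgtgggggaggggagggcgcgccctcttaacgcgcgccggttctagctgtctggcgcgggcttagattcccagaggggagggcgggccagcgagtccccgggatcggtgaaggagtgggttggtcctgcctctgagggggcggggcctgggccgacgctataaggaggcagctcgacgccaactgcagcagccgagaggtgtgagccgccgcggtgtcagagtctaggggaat
Gadd45a: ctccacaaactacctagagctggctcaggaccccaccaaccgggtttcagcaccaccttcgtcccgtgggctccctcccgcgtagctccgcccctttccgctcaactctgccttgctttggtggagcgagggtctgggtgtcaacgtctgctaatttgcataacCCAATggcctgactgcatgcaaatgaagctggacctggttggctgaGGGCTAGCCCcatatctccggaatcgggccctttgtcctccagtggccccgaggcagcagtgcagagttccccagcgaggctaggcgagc
Gadd45g: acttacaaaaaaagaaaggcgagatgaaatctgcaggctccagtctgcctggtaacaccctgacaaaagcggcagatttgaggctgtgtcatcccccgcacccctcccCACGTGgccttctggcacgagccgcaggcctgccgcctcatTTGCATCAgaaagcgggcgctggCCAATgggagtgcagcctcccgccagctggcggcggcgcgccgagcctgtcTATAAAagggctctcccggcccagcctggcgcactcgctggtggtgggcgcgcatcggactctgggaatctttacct
Btg2: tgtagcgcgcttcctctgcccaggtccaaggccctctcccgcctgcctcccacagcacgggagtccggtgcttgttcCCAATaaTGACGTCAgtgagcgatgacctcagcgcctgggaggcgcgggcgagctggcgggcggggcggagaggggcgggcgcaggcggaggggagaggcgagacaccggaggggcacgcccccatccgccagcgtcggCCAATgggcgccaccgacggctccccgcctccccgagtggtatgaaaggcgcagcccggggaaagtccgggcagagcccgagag

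The ATF4 composite core was matched in 1 of the 9 windows, that of Gadd45g, starting 101 bases before the start and read on the minus strand, and in 3.97% of all 32851 windows. The full cAMP response element was matched in the Btg2 window alone, starting 166 bases before the start, and in 1.79% of all windows. The p53 consensus decamer was matched in 4 of 9 windows against 8.36% of all windows. It occurred at Cdkn1a start 1, starting 73 and 51 bases before it, at Gadd45a (40 bases before the start), at Ccng1 (185) and at Mdm2 (186). The CCAAT box was matched in 7 of 9 windows (37.4% of all), the GC box GGGCGG in 6 (35.7%), the TATA box in 3 (13.6%), the E-box in 2 (7.15%) and TGACG, which lies inside the full cAMP response element, in 3 (20.8%). The letters TGACGCAA, TTGCGNAA and GCGGGGGCG, which 0.49%, 0.798% and 2.91% of all windows held, were in none of the 9. All 11 motifs were chosen with the members known, and a match of letters is a description, not a binding site.

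**Figure D1:**
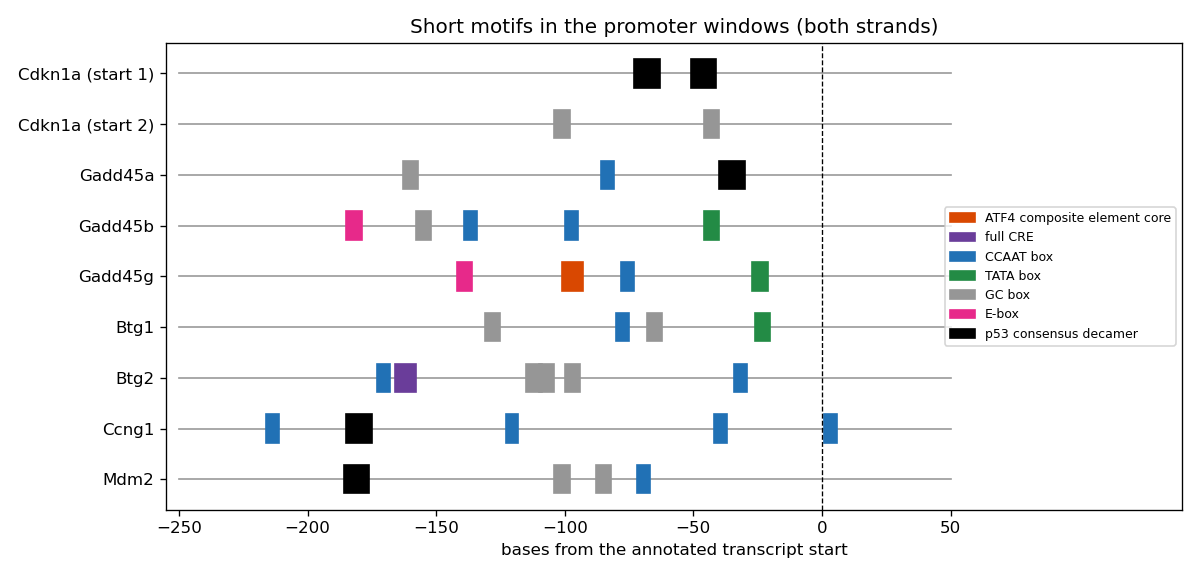
Matches to 7 of the 11 short motifs in the 9 promoter windows of the 8 genes, by distance in bases from the annotated start (dashed line); each coloured box is 1 match on either strand. The ATF4 composite core falls in the Gadd45g window, the full cAMP response element in the Btg2 window, and the p53 consensus decamer in the windows of Cdkn1a start 1, Gadd45a, Ccng1 and Mdm2.

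The deposited value of a probe set is a linear ratio, and each of the 10 probe sets here had a median of 1.0 over the 8 arrays, so that a ratio reads as a multiple of that probe set's own middle level. Ratios say nothing of brightness and cannot be set between genes as levels. Before the members, the genotype labels were read on Atf4 itself. Its ratio was 4.17 and 5.75 in the treated Atf4+/+ arrays and 0.25 and 0.33 in the treated Atf4-/- arrays, but 2.36 and 0.30 in those labelled untreated Atf4+/+ and 0.29 and 1.67 in those labelled untreated Atf4-/-. Replicate 2 of both untreated groups (below, both doubted arrays) therefore stood against its label, and the labels of untreated Atf4-/- replicate 1 disagree among themselves on the genotype. Eif2ak3, the endogenous gene for PERK, had ratios of 0.61 to 1.45 over the 8 arrays. Whether the 4 treated arrays overlap the 4 untreated ones does not depend on these genotype labels, and that comparison comes first. Its SE and p do depend on them, since they come from the fit of the 4 group means. Its fitted log2 difference depends on them only where a change of label leaves groups of unequal size.

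Cdkn1a had higher values in every treated array than in any untreated one, on both of its probe sets. On 94881_at the untreated ratios were 0.24 and 0.35 in Atf4+/+ and 0.69 and 0.56 in Atf4-/-. The treated ratios were 2.09 and 3.19 in Atf4+/+ and 1.31 and 2.25 in Atf4-/-. The order of the group means was treated Atf4+/+ (2.64 ± 0.778), treated Atf4-/- (1.78 ± 0.665), untreated Atf4-/- (0.625 ± 0.0919) and untreated Atf4+/+ (0.295 ± 0.0778), each as mean ± SD of 2 arrays, and the ranges of the treated groups overlapped. On 98067_at the untreated ratios were 0.40 and 0.32 in Atf4+/+ and 0.70 and 0.29 in Atf4-/-, and the treated ones 1.5 and 2.35 in Atf4+/+ and 1.30 and 2.18 in Atf4-/-. The genotypes overlapped on this probe set with and without AP20187. Over both genotypes the log2 difference was 2.06 ± 0.25 on the first probe set (4.16-fold, SE, limma adjusted p = 0.0817) and 1.89 ± 0.31 on the second (3.72-fold, limma adjusted p = 0.154). Differences are on the scale of log2(ratio + 0.1), which understates the change of low ratios, and neither passed the threshold of 0.05 over all probe sets.

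Gadd45a had the largest difference among the members. Its untreated ratios were 0.55 and 0.09 in Atf4+/+ and 0.14 and 0.36 in Atf4-/-, against treated ratios of 3.56 and 3.01 in Atf4+/+ and 1.68 and 1.45 in Atf4-/-. Every treated array lay above every untreated one, and the treated Atf4+/+ arrays lay above the treated Atf4-/- arrays, while the untreated groups overlapped. The log2 difference over both genotypes was 2.79 ± 0.42 (6.93-fold, SE, limma adjusted p = 0.143).

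Gadd45g, a family member that also binds MEKK4, showed the same split. Its untreated ratios were 0.42 and 0.34 in Atf4+/+ and 0.32 and 0.79 in Atf4-/-, and its treated ratios 1.39 and 2.59 in Atf4+/+ and 1.40 and 1.21 in Atf4-/-. The treated groups overlapped, and so did the untreated ones. The log2 difference was 1.63 ± 0.31 (3.10-fold, SE, limma adjusted p = 0.205).

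Gadd45b, which is best known as a target of NF-kappa B and TGF-beta and as an early gene of liver regeneration, did not share this pattern. On 102779_at the untreated ratios were 0.76 and 1.18 in Atf4+/+ and 1.49 and 1.11 in Atf4-/-, and the treated ratios 0.79 and 0.95 in Atf4+/+ and 0.57 and 1.05 in Atf4-/-, with the groups overlapping. The log2 difference was -0.39 ± 0.25 (SE, 95% interval -0.99 to 0.21, limma adjusted p = 0.587). Its other probe set, 161666_f_at, carries a suffix that Affymetrix gave to probe sets shared by a family of sequences, so that its gene is less certain. There the ratios were 1.96 and 0.90 in untreated Atf4+/+, 2.40 and 2.57 in untreated Atf4-/-, 0.49 and 0.95 in treated Atf4+/+ and 0.45 and 1.05 in treated Atf4-/-. The untreated Atf4-/- arrays were the highest, and untreated Atf4+/+ replicate 2 lay among the treated arrays. The log2 difference was -1.28 ± 0.36 (limma adjusted p = 0.317), and both probe sets lay below 0. The intervals of Gadd45a (1.77 to 3.81) and Gadd45g (0.88 to 2.38) do not reach that of either Gadd45b probe set.

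Btg2 had higher values in all 4 treated arrays, by less than the genes above. Its untreated ratios were 0.93 and 0.77 in Atf4+/+ and 0.78 and 0.81 in Atf4-/-. Its treated ratios were 1.65 and 3.11 in Atf4+/+ and 1.12 and 1.07 in Atf4-/-. The treated Atf4-/- arrays therefore stood just above the untreated range, and treated Atf4+/+ replicate 2 stood far above the others. The log2 difference over both genotypes was 0.87 ± 0.22 (1.83-fold, SE, limma adjusted p = 0.293). Btg1, the other family member, had ratios of 1.15, 0.90, 1.0 and 0.90 without AP20187 and 1.28, 1.0, 0.87 and 1.43 with it, given for Atf4+/+ and then Atf4-/-. These overlapped, with a log2 difference of 0.18 ± 0.21 (95% interval -0.33 to 0.68, limma adjusted p = 0.771).

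The p53 targets Ccng1 and Mdm2 showed smaller differences. Ccng1 had ratios of 0.97, 1.03, 1.51 and 0.95 without AP20187 and 0.96, 1.31, 1.24 and 0.83 with it, in the same order. Its groups overlapped fully, and the log2 difference was -0.03 ± 0.22 (SE, 95% interval -0.57 to 0.51, limma adjusted p = 0.961). Mdm2 had ratios of 1.06, 0.83, 0.80 and 0.60 without and 1.26, 1.27, 0.94 and 1.32 with AP20187. Only treated Atf4-/- replicate 1 (0.94) fell inside the untreated range, below untreated Atf4+/+ replicate 1. The log2 difference of Mdm2 was 0.50 ± 0.19 (1.42-fold, limma adjusted p = 0.404).

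**Figure D2:**
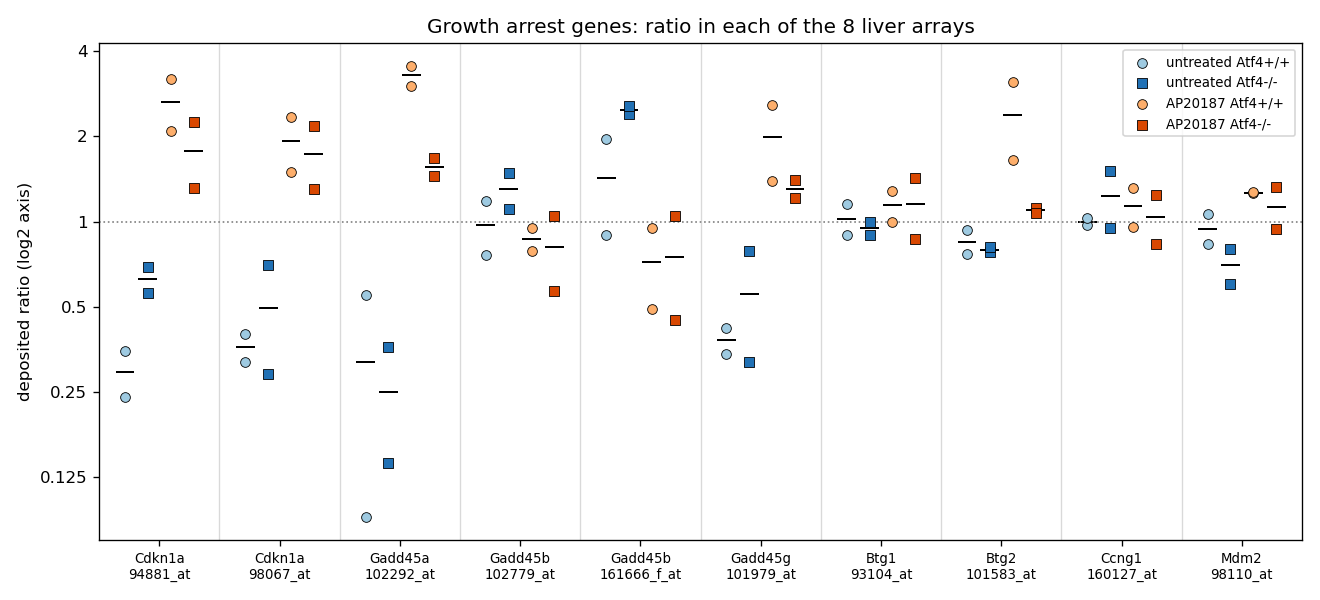
Deposited ratio (log2 axis) of the 10 growth arrest probe sets in each of the 8 arrays, coloured by treatment and Atf4 genotype as labelled; black bars are the means of 2 arrays, and the dotted line is a ratio of 1. Both Cdkn1a probe sets, Gadd45a, Gadd45g and Btg2 have all 4 treated arrays above all 4 untreated arrays, while Gadd45b, Btg1, Ccng1 and Mdm2 overlap.

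Of the 10 probe sets 0 passed the limma test over all 12422 in the comparison of treated and untreated arrays of both genotypes, in which 0.0403% of all probe sets (5) passed. At an unadjusted limma p under 0.05, 6 of 10 had higher values against 6.16% of all probe sets, namely both of Cdkn1a, Gadd45a, Gadd45g, Btg2 and Mdm2. The same threshold gave 1 of 10 with lower values, the less certain Gadd45b probe set, against 5.15%. All 4 treated arrays lay above all 4 untreated ones in 5 of 10, against 4.19% of all probe sets, and the reverse held in 0 of 10 against 3.78%. The median log2 difference was 0.69 over the 10 probe sets and -0.04 over all. Ordered by this difference among the 12422, Gadd45a stood at place 12, the Cdkn1a probe sets at 24 and 29, Gadd45g at 43, Btg2 at 390, Mdm2 at 1241, Btg1 at 3390 and Ccng1 at 6050, while the Gadd45b probe sets stood at 10419 and 12369. The count of 5 without overlap was 5 or 6 when any 1 array was left out. It was 5 without both untreated arrays whose Atf4 ratio stood against the label. Fewer arrays can only keep or raise such a count, so these values do not test its stability. The share of all probe sets was not counted in those settings.

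**Figure D3:**
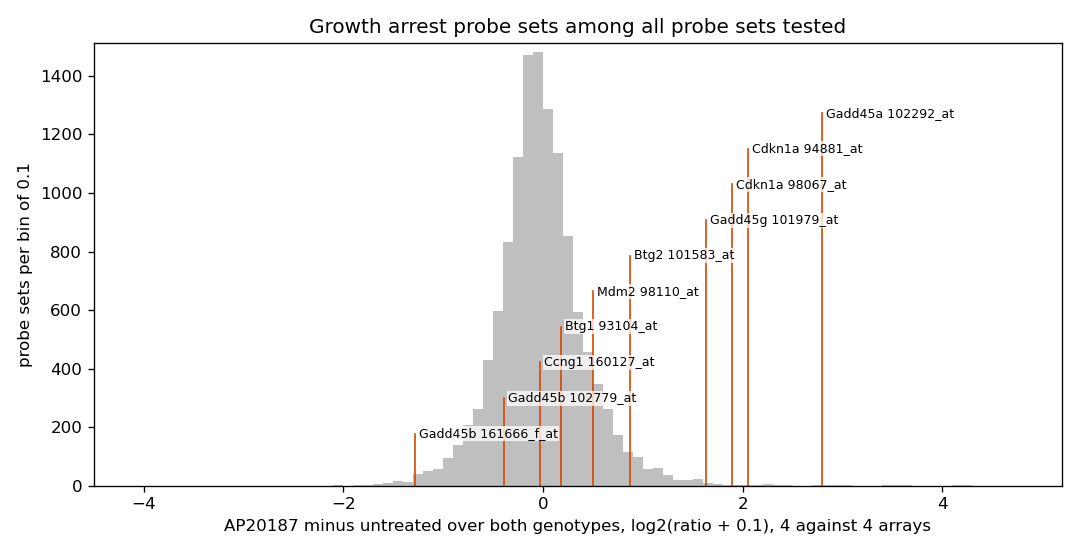
Histogram of the log2 difference between AP20187-treated and untreated arrays over both genotypes for all 12422 probe sets (grey, bins of 0.1 on the log2(ratio + 0.1) scale), with the 10 growth arrest probe sets as orange lines whose heights serve the labels only. Gadd45a, Cdkn1a and Gadd45g lie in the far upper tail, Ccng1 and Btg1 in the middle, and 161666_f_at, named for Gadd45b, in the lower tail.

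Split by genotype as labelled, the Atf4+/+ livers gave log2 differences of 2.78 ± 0.35 and 2.11 ± 0.44 for Cdkn1a, 3.26 ± 0.60 for Gadd45a, 2.07 ± 0.44 for Gadd45g and 1.32 ± 0.32 for Btg2 (SE, 2 against 2 arrays). Their limma adjusted p-values were 0.109, 0.267, 0.243, 0.284 and 0.349. The count at an unadjusted limma p under 0.05 was 5 of 10 with higher values, against 4.78% of all probe sets, and 0 of 10 with lower values against 4.31%. Of the 10, 0 passed the adjusted test, where 0.00805% of all probe sets (1) did. The treated Atf4+/+ arrays lay above the untreated ones without overlap in 6 of 10, those 5 and Mdm2, against 16.7% of all probe sets, and below them in 0 of 10 against 21.3%. In the Atf4-/- livers the same genes gave 1.33 ± 0.35 and 1.68 ± 0.44 for Cdkn1a, 2.32 ± 0.60 for Gadd45a, 1.2 ± 0.44 for Gadd45g and 0.42 ± 0.32 for Btg2, with limma adjusted p-values of 0.487, 0.487, 0.484, 0.635 and 0.784. The count there was 4 of 10 with higher values against 4.27% of all probe sets, without Btg2. There was 1 with lower values, the less certain Gadd45b probe set, against 3.16%, and 0 of 12422 (0%) passed the adjusted test. Without overlap, 6 of 10 were higher in the treated Atf4-/- arrays against 20.1% of all probe sets, again with Mdm2, and both Gadd45b probe sets were lower against 22.3%. The count of 4 was 2 without treated Atf4-/- replicate 2, and also 2 without both untreated arrays whose Atf4 ratio stood against the label. Mdm2 stood at 0.39 ± 0.26 in Atf4+/+ and 0.61 ± 0.26 in Atf4-/-, and the less certain Gadd45b probe set at -0.87 ± 0.51 and -1.70 ± 0.51.

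**Figure D4:**
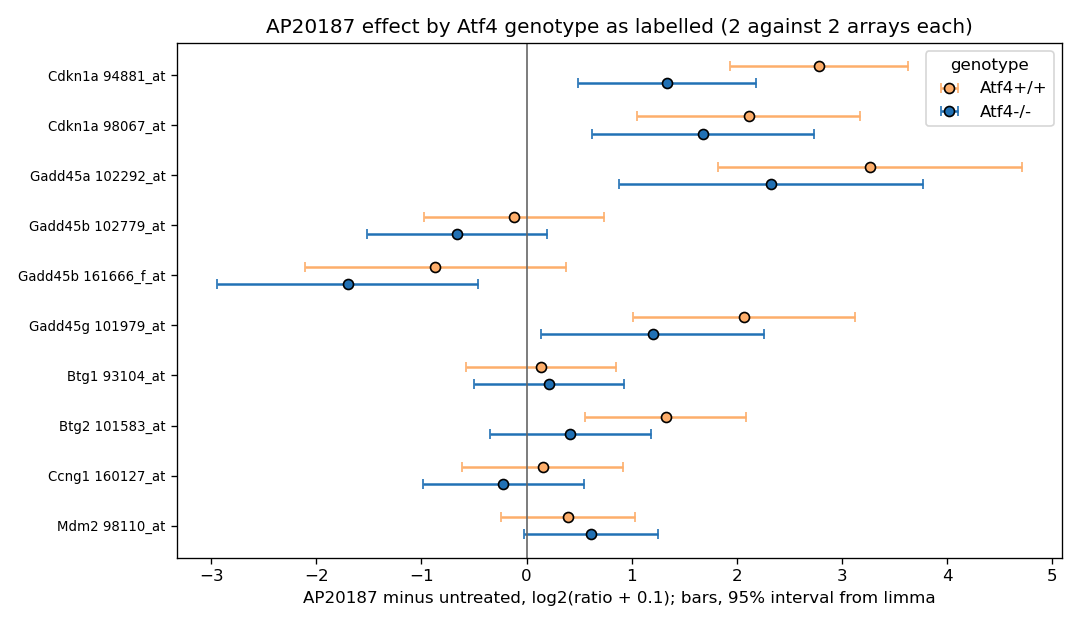
AP20187 minus untreated, in log2(ratio + 0.1), for each growth arrest probe set in livers labelled Atf4+/+ (orange) and Atf4-/- (blue), 2 against 2 arrays each; bars are 95% intervals from limma. The point for Atf4-/- lies left of that for Atf4+/+ for both Cdkn1a probe sets, Gadd45a, Gadd45g and Btg2, and the bars of the 2 genotypes overlap in every row.

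The difference between these effects, Atf4-/- minus Atf4+/+, was tested directly. It was below 0 for 8 of 10 probe sets, a count for which the share over all probe sets was not taken. These include both probe sets of Gadd45b and that of Ccng1, whose AP20187 effects over both genotypes were not above 0. The median difference was -0.69 against 0.04 over all probe sets, and 0 of 10 passed by limma, as 0 of 12422 did. The largest was that of Cdkn1a on 94881_at, at -1.44 ± 0.50 (SE, 95% interval -2.64 to -0.25, limma adjusted p = 0.901), which was the 1 member with an unadjusted limma p under 0.05 against 2.73% of all probe sets in that direction, and 0 of 10 stood in the other direction against 2.73%. The other Cdkn1a probe set gave -0.43 ± 0.62 (95% interval -1.93 to 1.07), and the probe sets of this gene thus differed by more than 1.5 times in the size of the difference. Gadd45a gave -0.94 ± 0.85, Gadd45g -0.87 ± 0.62 and Btg2 -0.91 ± 0.45, with limma adjusted p-values of 0.945, 0.944 and 0.933. Single arrays moved these differences. Without treated Atf4+/+ replicate 2 Btg2 gave -0.47 and Gadd45g -0.44, and Gadd45g gave -1.41 and -0.33 without untreated Atf4-/- replicate 1 and 2. Gadd45a gave -1.83 and -0.0542 without untreated Atf4+/+ replicate 1 and 2, and -0.47 without untreated Atf4-/- replicate 2. The unadjusted limma p of Cdkn1a on 94881_at was above 0.05 without untreated Atf4+/+ replicate 1, untreated Atf4-/- replicate 1, treated Atf4+/+ replicate 2 or treated Atf4-/- replicate 1, with values of -1.81 to -1.08 over all 8 such fits, and without both doubted arrays (-1.78). With the array of disputed genotype placed by its description, the second Cdkn1a probe set took the opposite sign (0.35), and without both untreated arrays that stood against their labels Gadd45a did (0.42). The 95% intervals ran from -2.99 to 1.10 for Gadd45a, from -2.36 to 0.63 for Gadd45g and from -1.99 to 0.17 for Btg2, and all hold 0.

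Among treated livers, where the Atf4 ratio ran with the labels, Btg2 was lower in Atf4-/- than in Atf4+/+ by a log2 difference of -0.99 ± 0.32 (SE, limma adjusted p = 0.872). It was the 1 of 10 probe sets with an unadjusted limma p under 0.05 in that direction, against 2.78% of all probe sets, and 0 of 10 had higher values at that threshold against 2.53%. Without treated Atf4+/+ replicate 2 the Btg2 difference was -0.55, and its unadjusted limma p was above 0.05 without that array, without either treated Atf4-/- array or without both doubted arrays. Gadd45a gave -1.02 ± 0.60, Cdkn1a -0.56 ± 0.35 and -0.15 ± 0.44, and Gadd45g -0.51 ± 0.44, with limma adjusted p-values of 0.953, 0.956, 0.982 and 0.957. Of these, Gadd45a moved by less than 1.5 times when any 1 array was left out. Cdkn1a on 94881_at was -0.85 and -0.27 without treated Atf4+/+ replicate 1 and 2, and -0.19 and -0.93 without treated Atf4-/- replicate 1 and 2. On 98067_at those values were -0.46, 0.16, 0.20 and -0.50. Gadd45g was -0.94 and -0.088 without treated Atf4+/+ replicate 1 and 2. The treated Atf4-/- arrays lay wholly below the treated Atf4+/+ arrays in 2 of 10 probe sets, Gadd45a and Btg2, against 15.3% of all probe sets, and wholly above them in 0 of 10 against 19.2%. In untreated livers Cdkn1a on 94881_at was higher in the arrays labelled Atf4-/-, by 0.88 ± 0.35 (limma adjusted p = 0.900), the 1 of 10 with an unadjusted limma p under 0.05 and higher values against 2.76% of all, with 0 of 10 lower against 2.56%. That count of 1 was 0 without any 1 of the 4 untreated arrays. Without overlap 2 of 10 were higher in untreated Atf4-/-, that probe set and the less certain one of Gadd45b, against 15.5% of all, and 1 of 10 was lower, Mdm2, against 16.4%. The other Cdkn1a probe set gave 0.29 ± 0.44, Gadd45a -0.08 ± 0.60, Gadd45g 0.35 ± 0.44 and Btg2 -0.08 ± 0.32. In both genotype comparisons 0 of 12422 probe sets (0%) passed the adjusted limma test.

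Other genes of arrest and p53 signalling were counted in the same comparison, in which 6.16% of all probe sets had higher and 5.15% lower values at an unadjusted limma p under 0.05. A list of p53, its targets and other genes linked to it, such as Trp53bp1 and Mdm4, held 24 genes besides the members. Of these, 15 were measured. Trp53 itself, Bax, Bbc3, Pmaip1, Sesn2 and Gdf15 were among those without a probe set naming 1 gene, so p53 was not read. Of the 15, 0 had higher values with AP20187 over both genotypes at an unadjusted limma p under 0.05. The 1 with lower values was Sesn1, which encodes a stress-induced inhibitor of mTORC1 signalling (-0.65 ± 0.20, limma adjusted p = 0.356). Its treated ratios were 0.60 to 0.95 and its untreated ratios 1.05 to 1.8, without overlap. The median over the 15 was -0.01. Of 7 other inhibitors of cyclin-dependent kinases 1 had higher and 2 had lower values at that threshold, with a median of -0.32: Cdkn1b (p27) gave 0.49 ± 0.18, Cdkn1c (p57) -0.51 ± 0.21 and Cdkn2a -1.33 ± 0.47, with limma adjusted p-values of 0.396, 0.440 and 0.388. Of 11 cyclins, cyclin-dependent kinases and PCNA, on which p21 acts, 0 had higher and 3 had lower values at that threshold: the D-type cyclins Ccnd2 (-1.53 ± 0.41) and Ccnd3 (-0.50 ± 0.16) and the S phase cyclin Ccna2 (-0.79 ± 0.26). Their limma adjusted p-values were 0.307, 0.382 and 0.378. The median over the 11 was -0.03, against -0.04 over all probe sets.

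Among 8 other measured members of the Btg and Tob family and their partners, Prmt1, an arginine methyltransferase that binds Btg1 and Btg2, gave 0.75 ± 0.19 (SE, limma adjusted p = 0.293). That list had 1 gene with higher and 0 with lower values at an unadjusted limma p under 0.05. The shares of all probe sets were again 6.16% and 5.15%, here and for the next lists. Among 10 stress kinases downstream of Gadd45 proteins 0 had higher and 2 had lower values, the p38 activators Map2k3 (-0.53 ± 0.18, limma adjusted p = 0.382) and Map2k6 (-0.68 ± 0.27, limma adjusted p = 0.431). Map2k6 had ratios of 1.11, 0.73, 1.58 and 1.07 without AP20187 and 1.13, 0.93, 0.26 and 0.56 with it, in the order Atf4+/+ then Atf4-/-, so that only the treated Atf4-/- arrays were low. Of 12 transcription factors and regulators of stress, 8 had higher and 0 had lower values at that threshold, with a median of 0.78. Atf3 (4.15 ± 0.33, limma adjusted p = 0.0370) rose, and Ddit3, which encodes CHOP, stood at 3.55 ± 0.34 (limma adjusted p = 0.0569). The Atf3 call was lost in 8 of 8 fits that left out 1 array (limma adjusted p = 0.0578 to 0.222) and without both doubted arrays (limma adjusted p = 0.413). Trib3 stood at 4.21 ± 0.48 and Myc at 3.41 ± 0.69.

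Likeness of other genes to the members over the 8 arrays was measured as Pearson's r of log2(ratio + 0.1), a description over 8 points that share the split by treatment and the doubted labels. The 3 genes most like Cdkn1a on 94881_at were the tumour suppressor gene Rassf1 (r = 0.983), Ddit3 (0.966) and Mphosph10 (0.961), and those most like it on 98067_at were Lemd2 (0.989), Mocs2 (0.964) and Polr1c (0.963). Ddit3 had ratios of 0.09 to 0.30 in the untreated and 1.70 to 5.95 in the treated arrays. For Gadd45g they were the pseudokinase gene Trib3 (0.976), Polr1e (0.974) and Fubp1 (0.968), for Gadd45a Marchf5 (0.988), Pnrc2 (0.969) and Jund (0.969), and for Btg2 Thumpd3 (0.992), Zfp568 (0.989) and Tsr1 (0.986). Thumpd3 shared the high ratio of Btg2 in treated Atf4+/+ replicate 2, at 3.01 against 0.83 to 0.87 in the untreated arrays. Among the members, r was 0.945 between the Cdkn1a probe sets, 0.915 between Gadd45a and Gadd45g and 0.748 to 0.886 among the other pairs of Cdkn1a, Gadd45a, Gadd45g and Btg2. Mdm2 overlapped that range, with r of 0.567 (Gadd45g) to 0.809 (Cdkn1a on 98067_at) to the probe sets of these genes. Between the Gadd45b probe sets r was 0.637, and between them and Gadd45a it was -0.643 and -0.641.

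The arrays were also read for other differences that could move with treatment. Of 52 measured markers of hepatocytes, blood and immune cells, endothelium, stroma, bile duct, dividing cells and pancreas, 0 passed the limma test over both genotypes. At an unadjusted limma p under 0.05, where 6.16% of all probe sets were higher and 5.15% lower, 1 marker was higher and 1 lower. Both were hepatocyte genes, Fgb at 0.59 ± 0.20 and Ttr, whose promoter drives the transgene, at -0.57 ± 0.20, with Ttr ratios of 1.02 to 1.43 in the untreated and 0.47 to 0.98 in the treated arrays. The lowest Ttr ratio was in treated Atf4+/+ replicate 2, which had the highest ratios of Cdkn1a, Gadd45g and Btg2. The same array had the lowest 5′ over 3′ value of Actb in log2 (-0.64, against -0.19 for the next array). That value was taken from deposited ratios and so is not a ratio of signals. For Gapdh it was -0.061 in this array and -0.05 to 0.126 in the others. The clock gene Dbp had a high ratio in this array (3.87, below 5.37 in untreated Atf4+/+ replicate 2). Of 12 fasting and glucocorticoid genes 3 had higher and 0 lower values at that threshold, against the same 6.16% and 5.15%. Igfbp1, an insulin-repressed binding protein of the liver, rose by 2.08 ± 0.18 (limma adjusted p = 0.0393) on a probe set of the family kind. That call was lost in 8 of 8 fits that left out 1 array (limma adjusted p = 0.1248 to 0.2252) and without both doubted arrays (limma adjusted p = 0.413). Of 12 clock genes 0 had higher and 1 had lower values at that threshold, against those same shares. The part of all these in the members' values was not tested. Without that array the log2 difference over both genotypes was 1.91 and 1.74 for Cdkn1a, 1.42 for Gadd45g and 0.65 for Btg2. In bulk tissue a change in the share of a cell type and a change in RNA per cell cannot be told apart.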

How the data were processed

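Total RNA of mouse liver was labelled as biotinylated cRNA with the GeneChip kit and hybridised to 8 arrays, per the labels' protocols. The authors deposited 1 table of linear ratios, rounded to 0.01, and the sources used here do not give its summarising, scaling or divisor. In 85.8% of the 12422 probe sets the median over the 8 arrays was at least 0.99. Signal over background is unknown, and 2 arrays a group limit the precision (median SE 0.325 for 2 against 2 arrays, 0.23 for 4 against 4, log2).

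After 66 control probe sets were left out, log2(ratio + 0.1) was fitted with limma 3.58.1 (R 4.3.3) as 4 group means over all 8 arrays, with eBayes (4 residual and 2.37 prior degrees of freedom) and Benjamini-Hochberg adjustment over all 12422 for each of the 6 comparisons, at 0.05. The fit was run on simulated tables with known changes, normal noise and correct labels, which checks the code only. Groups follow the source names, also where the description of untreated Atf4-/- replicate 1 gives the other genotype (for untreated Atf4+/+ replicate 1, whose source name has no treatment, the description). Gene names came from the platform annotation, with 10817 of 10833 probe sets of 1 gene matched to the gene table, and list genes without such a probe set were not analysed here. The members and lists were chosen with earlier results of these data known. Genes were named by rule: all members, Atf4, up to 4 genes per list by smallest p, and the 3 genes most like a member. Dbp, Ttr and Thumpd3's ratios were picked after values were seen. Lists count 1 probe set per gene. Alternatives covered pseudocounts, scaling, filtering, moderation, weights, grouping and leaving out each array. Figures used Python 3.11.15 and matplotlib 3.10.9.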

Additional observations from a re-analysis of the deposited data

How the results depend on the processing

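Over 19 alternatives, 775 values of the members kept their direction and side of the threshold. A further 1 passed the adjusted test newly and 29 took the other sign. These values cover all members for the AP20187 effects. For the difference of effects and the genotype comparisons they cover only Cdkn1a, Gadd45a, Gadd45g and Btg2. Only after quantile normalization did 1 member pass over both genotypes, Cdkn1a on 94881_at. No paired analysis was possible because the replicate numbers follow accession order. Depth is unknown, and p-values of 2 against 2 arrays limit every genotype statement; where a value took the other sign, the cause was not tested. Settings that leave an arm with 1 array assume that it varies like the others.

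Of all probe sets, those past the limma test in Atf4+/+ numbered 1, against 2 after quantile normalization, 8 with a row median of at least 0.99, 0 with the arrays of the comparison only, 17 with untreated Atf4-/- replicate 1 placed by its description, 0 without both doubted arrays and 0 to 0 leaving out 1 array. For the difference of the effects there were 0, against 2 with the row median filter and 2 with robust moderation. Over both genotypes there were 5, against 9 with a trimmed mean, 12 with quantile normalization, 10 with the row median filter, 10 with robust moderation, 3 with array weights, 8 with no genotype term, 0 without both doubted arrays and 0 to 2 leaving out 1 array. Members with higher values at an unadjusted p under 0.05 in Atf4-/- numbered 4, against 2 without both doubted arrays and 2 to 4 leaving out 1 array. Between untreated genotypes there was 1, against 0 with a pseudocount of 0.25, 0 with array weights, 0 without both doubted arrays and 0 to 1 leaving out 1 array.

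With that array placed by its description, the values that took the other sign were Ccng1 in Atf4+/+ (-0.0305), in Atf4-/- (0.0884) and over both (0.029), Cdkn1a on 98067_at for the difference of effects (0.35) and between untreated genotypes (-0.50), and Gadd45a between untreated genotypes (0.57). Without both doubted arrays they were Gadd45b on 102779_at (0.17) and Btg1 (-0.0208) in Atf4+/+, Gadd45a for the difference (0.42) and Gadd45g between untreated genotypes (-0.31). Leaving out 1 array, values that changed sign ranged in Atf4+/+ from -0.0529 to 0.36 for Ccng1, -0.0235 to 0.30 for Btg1 and -0.41 to 0.17 for Gadd45b on 102779_at. In Atf4-/- they ranged from -0.53 to 0.0884 for Ccng1 and -0.11 to 0.54 for Btg1, and over both from -0.19 to 0.12 for Ccng1. Cdkn1a on 98067_at ranged from -0.95 to 0.0845 for the difference, -0.50 to 0.20 between treated and -0.23 to 0.80 between untreated genotypes. Between untreated genotypes Gadd45a ranged from -0.97 to 0.81, Btg2 from -0.20 to 0.0407 and Gadd45g from -0.19 to 0.90.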
